A study of Drosophila melanogaster with 23 samples.

Results

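Among 23 RNA-seq libraries of adult Drosophila melanogaster heads, 4 were set apart for high levels of cuticle and muscle transcripts among the 20 libraries scaled together. They are CHD8/+ replicates 2, 3 and 4 and CHD2/+ replicate 2, called the cuticle-high libraries here, and they are set against the other 4 libraries of the same genotypes, CHD8/+ replicate 1 and CHD2/+ replicates 1, 3 and 4. The sets follow measured transcripts and not a label, so every difference between them is a description and carries no test. The remaining ASH1L/+, WDFY3/+ and WT libraries, 12 in all, are in neither set and serve as an outside scale, while the 3 libraries of CHD8/+; PP2R5D/+ were scaled in a table of their own. The 4 were high among all 20, so cuticle and muscle levels above the outside libraries partly restate the choice.

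CHD8/+ flies are heterozygous for a mutation of kismet (kis), a chromatin remodeler of the CHD family which the study names after its human counterpart, and CHD2/+ flies are heterozygous for a mutation of the related remodeler Chd1. The alleles were kis1 and a Chd1 allele received from another laboratory, the ASH1L/+ and WDFY3/+ flies carried ash1-mimic and bchs58, the WT flies were w1118, and all heads were taken 5 to 7 days after pupation. The labels give neither the sex of the flies nor the number of heads in a library. Genotype and set are entangled, since 3 of the 4 cuticle-high libraries are CHD8/+ and 3 of the other 4 are CHD2/+. Replicate number is entangled as well, because replicate 1 of both genotypes fell in the other set and replicate 2 of both in the cuticle-high set.

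The insect exoskeleton is a layered matrix of chitin fibres and cuticle proteins, many of which bind chitin through a shared Rebers-Riddiford motif, and it is secreted by the epidermis, hardened and darkened by products of dopamine. In the adult head it forms the capsule, the bristles, the mouthparts and the corneal lenses of the eye. Muscles of the head and mouthparts attach to it, and their contractile unit, the sarcomere, is built of actin, myosin, tropomyosin and troponin. In bulk tissue of this kind, more cells of a type and more RNA per cell cannot be told apart.

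Normalised read counts, in which the authors' scaling has divided each library by its size factor, summed to 3982750 to 8558270 per library. Steps in the low values gave an estimated 2.78 to 6.04 M reads in the cuticle-high libraries, against 3.41 to 9.92 M in the other 4 libraries. The study states a higher median of mapped reads per sample than the 5.11 M estimated over the 20 libraries, so these estimates are a rough scale. The structural cuticle list took 0.180 to 0.252% of all counts in the cuticle-high libraries, against 0.107 to 0.131% in the other 4 and 0.0658 to 0.158% in the 12 outside libraries. Sarcomere genes took 1.85 to 2.59% in the cuticle-high libraries, 0.971 to 1.47% in the other 4 and 0.994 to 1.84% outside. In the double heterozygote the cuticle share was 0.250, 0.304 and 0.459%, and the sarcomere share 0.824, 2.10 and 1.55%. Its separate table holds 99 listed cuticle and 35 listed sarcomere genes, against 130 and 34 for the 20 libraries. On this unlike basis its cuticle shares were no lower than the range of the cuticle-high libraries. The double heterozygote is left out of the sets because it was scaled apart. Head transcripts were present throughout: ninaE, the main rhodopsin, had 14956 to 30055 counts in the cuticle-high libraries, against 18960 to 32195 in the other 4, and elav, a neuronal RNA-binding protein, had 622 to 1219 and 870 to 1643. The abundant gene FBgn0085364 was listed at 0 in CHD8/+ replicates 3 and 4 and at 122318 and 203642 in the other cuticle-high libraries, against 52495 to 97843 in the other 4, and it was also at 0 in replicate 4 of ASH1L/+, WDFY3/+ and WT.

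The mutated genes themselves did not separate the sets. The kis transcript had 923, 705, 485 and 523 counts in the cuticle-high libraries, in the order CHD8/+ replicates 2, 3 and 4 and then CHD2/+ replicate 2. It had 2649, 1133, 657 and 926 in the other 4, in the order CHD8/+ replicate 1 and then CHD2/+ replicates 1, 3 and 4, and 546 to 3091 in the outside libraries. These orders hold for all lists of 4 values that follow. Chd1 had 244, 165, 114 and 106 counts in the cuticle-high libraries, against 349, 204, 99.8 and 162 in the other 4 and 112 to 481 outside. Neither gene was lower in every library of its own heterozygote than in the outside libraries.

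Of 17559 genes in the table, 8707 reached 10 counts in at least 4 of the 8 libraries. A gene was counted as separated when all 4 cuticle-high libraries lay beyond all 4 others and the means of log2(value + 1) differed by at least 1, that is 2-fold. By this count 163 genes (1.87%) were higher and 37 (0.425%) were lower in the cuticle-high libraries. At these shares a short list would hold few or no separated genes, so a low count says little about a list. Without the demand for 2-fold, 237 genes (2.72%) lay wholly above and 147 (1.69%) wholly below. The higher genes also moved further: 71 of the 163 differed by 4-fold or more and 18 by 16-fold or more, against 1 of the 37 lower genes at 4-fold. The libraries were chosen for high transcripts, so this inequality partly restates the choice. In 27 of the 163 no library of the other set reached 10 counts, so these genes entered only through the set in which they are high, and 4 of the 37 entered in the same way from the other side. Of the genes given below, Vajk3, Cpr64Aa, CG5172, CG13044, CG8736, kkv, yellow-d2, TpnC47D, Obp83g and Obp56c were among the 27. Just inside the 2-fold limit stood CG5177 (1.01) and Drl-2 (-1.004), and just outside stood Rpn8 (0.98) and alpha-Est7 (-0.98), all as log2 differences. The median gene differed by -0.03. Leaving out CHD2/+ replicate 3 raised the counts to 423 and 282. The lower count was also 125 without CHD8/+ replicate 2, 77 without CHD2/+ replicate 4, 69 without CHD2/+ replicate 2 and 58 without CHD8/+ replicate 1.

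Under the main filter the structural cuticle proteins gave the largest list difference. Of 130 genes of the list in the table, 31 passed the filter and 14 were separated, all higher, while none was lower. Over the 31 the median difference was 1.13 on the log2 scale, and 27 differences were positive, although 6 of the 31 entered only through the cuticle-high libraries. With genes chosen by the 12 outside libraries instead the median was 0.77 over 25 genes, and with no filter it was 0.34 over 113. Both values are below the main-filter median of the 4 corneal lens genes, 1.07, so the first rank may not hold under other filters. The mean log2 level of the 31 genes was 6.66 ± 0.26 in the cuticle-high libraries and 4.84 ± 0.28 in the other 4 (SD, n = 4 each), and 4.45 to 5.23 in the outside libraries. The list includes genes of the kind that chose the libraries, so its height restates the choice.

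**Figure D1:**
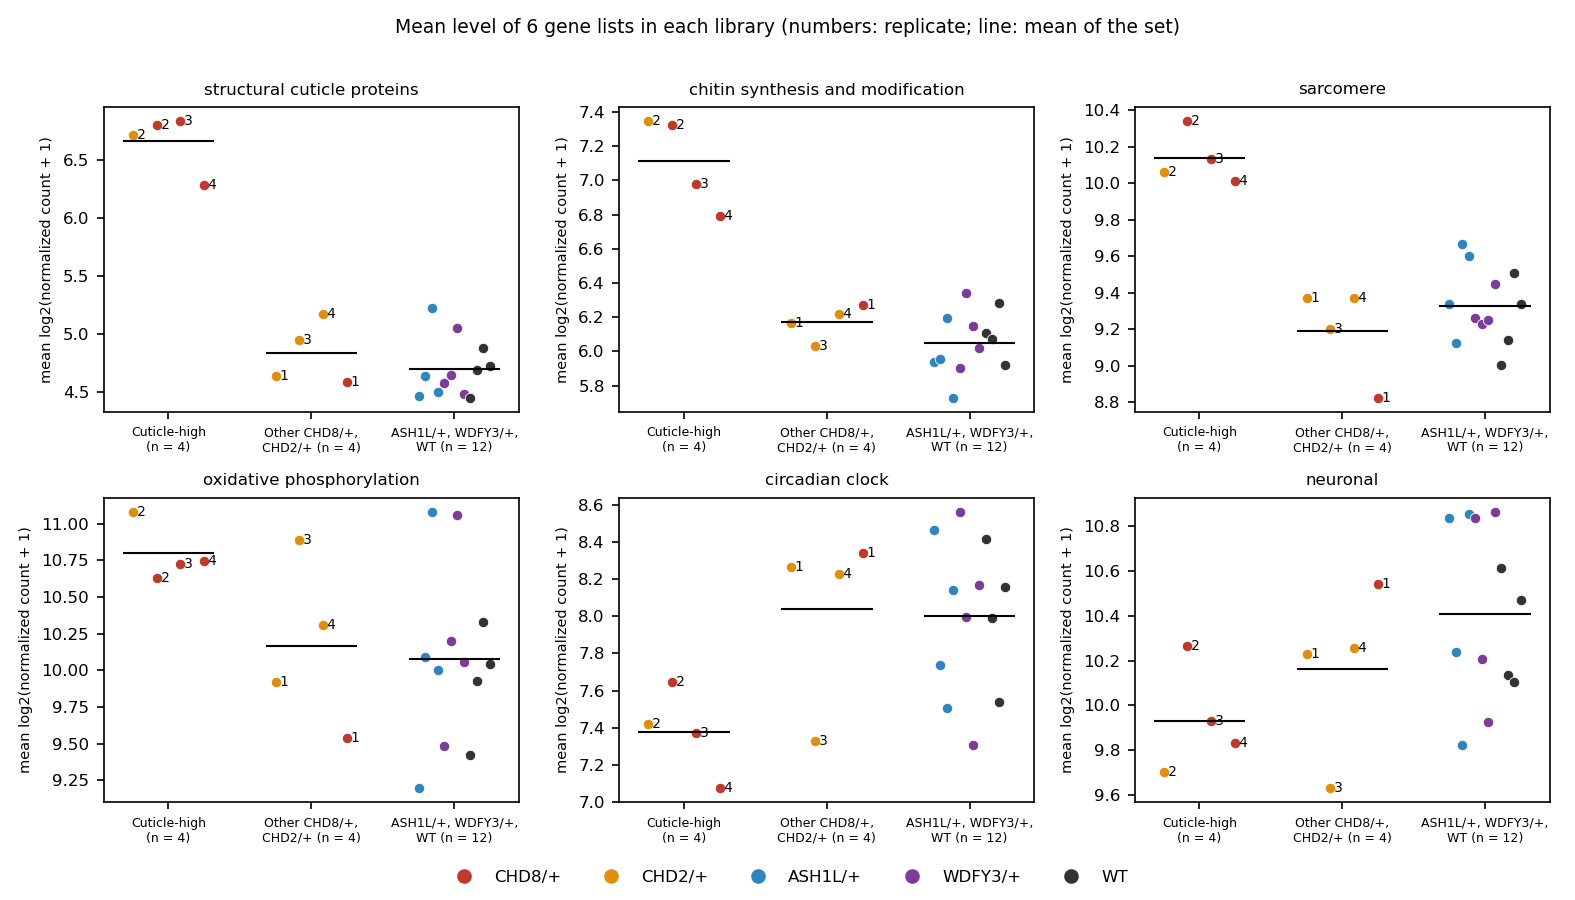
Mean log2(normalised count + 1) of 6 gene lists in each library (vertical axis), with the cuticle-high libraries at the left of each panel, the other CHD8/+ and CHD2/+ libraries in the middle and the 12 ASH1L/+, WDFY3/+ and WT libraries at the right. Points are libraries coloured by genotype, numbers are replicate numbers and lines are set means; in the cuticle, chitin and sarcomere panels all 4 cuticle-high libraries lie above all 16 others, whereas the oxidative phosphorylation, clock and neuronal panels overlap.

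Acp1, an adult cuticle protein, showed the largest difference of any separated gene. It had 6675, 3009, 2224 and 6276 counts in the cuticle-high libraries, against 5.68, 20.3, 38.8 and 96.0 in the other 4 and 2.26 to 208 (median 65.5) in the 12 outside libraries. The log2 difference was 7.23 (pooled SD 1.27, n = 4 each). The lowest cuticle-high library was thus far above the highest of the 16 others, but the other 4 also spread widely, with CHD8/+ replicate 1 lowest.

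Vajk3 and Vajk2 encode a pair of related cuticle proteins and sit next to each other at 2L:13932559-13947476. Vajk3 had 578, 711, 246 and 513 counts in the cuticle-high libraries, against 2.92, 4.61, 2.54 and 5.19 in the other 4 and 1.95 to 21.4 outside, a log2 difference of 6.67 (pooled SD 0.54). Vajk2 had 993, 1233, 457 and 552 counts against 13.1, 32.2, 24.1 and 22.8, with 4.44 to 46.6 outside, a log2 difference of 5.02. Unlike Acp1, both were near one low level in all 4 other libraries.

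Genes with the Rebers-Riddiford motif followed. Cpr62Bc had 425, 705, 181 and 414 counts in the cuticle-high libraries, against 11.6, 9.15, 10.8 and 12.4 in the other 4 and 11.8 to 29.7 outside, a log2 difference of 5.02 (pooled SD 0.58). For Cpr100A the counts were 1362, 1097, 712 and 1421 in the cuticle-high libraries, against 16.1, 21.9, 36.2 and 112 in the other 4 and 13.7 to 106 outside (log2 difference 4.95). Cpr64Aa, at 53.1, 39.1, 24.6 and 69.2 counts against 0, 1.14, 3.81 and 0, was among the genes that entered only through the cuticle-high set. In each of the 3 genes CHD8/+ replicate 4 was the lowest of the cuticle-high libraries.

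Short genes of unassigned function shared the pattern. CG7214, next to Acp1, was the most abundant of them, with 7788, 19517, 9213 and 8139 counts in the cuticle-high libraries, against 69.1, 45.6, 806 and 419 in the other 4 and 22.6 to 2936 outside (log2 difference 5.82). CG7203, at the far side of CG7214, had 4242, 4091, 2312 and 3542 counts, against 99.7, 128, 239 and 565 in the other 4 and 61.9 to 424 outside (4.08). Together with CG31904 they make a run of 4 genes that passed the filter, at 2L:7734415-7753186, all 4 separated and higher.

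On the X chromosome, CG12998, CG5172 and CG34327 were likewise the only 3 genes that passed the filter in X:17218667-17223815, and all 3 were separated. CG12998 had 1706, 3263, 452 and 993 counts in the cuticle-high libraries, against 30.4, 73.1, 116.8 and 68.4 in the other 4, and CG5172 had 358, 125, 28.0 and 223, against 2.52, 2.03, 0 and 1.68. CG34327 had 284, 195, 67.2 and 119 counts, against 2.84, 10.1, 1.91 and 10.3. In this run CHD8/+ replicate 4 again had the lowest cuticle-high values, and CG5172 did not exceed 2.52 counts in any of the other 4.

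A longer run lay at 3L:16262740-16333782, where 6 of 10 genes that passed the filter were separated and higher, among them CG13044 and CG13056. CG13044 had 150.5, 169.6, 57.2 and 58.7 counts in the cuticle-high libraries, against 0, 0, 0.639 and 1.02 in the other 4 and at most 3.48 outside. CG13056 had 256, 601, 352 and 507 counts, against 18.6, 19.6, 56.8 and 48.2 in the other 4 and 0.701 to 88.5 outside. CG8736, elsewhere in the genome, had 595, 298, 172 and 399 counts, against 1.40, 2.23, 1.27 and 8.23 in the other 4, a log2 difference of 6.544. Genes of this paragraph and the previous ones were named by size of difference and a mean of at least 50 counts, or as the leading members of a list. All coordinates are those of the BDGP6 assembly.

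**Figure D2:**
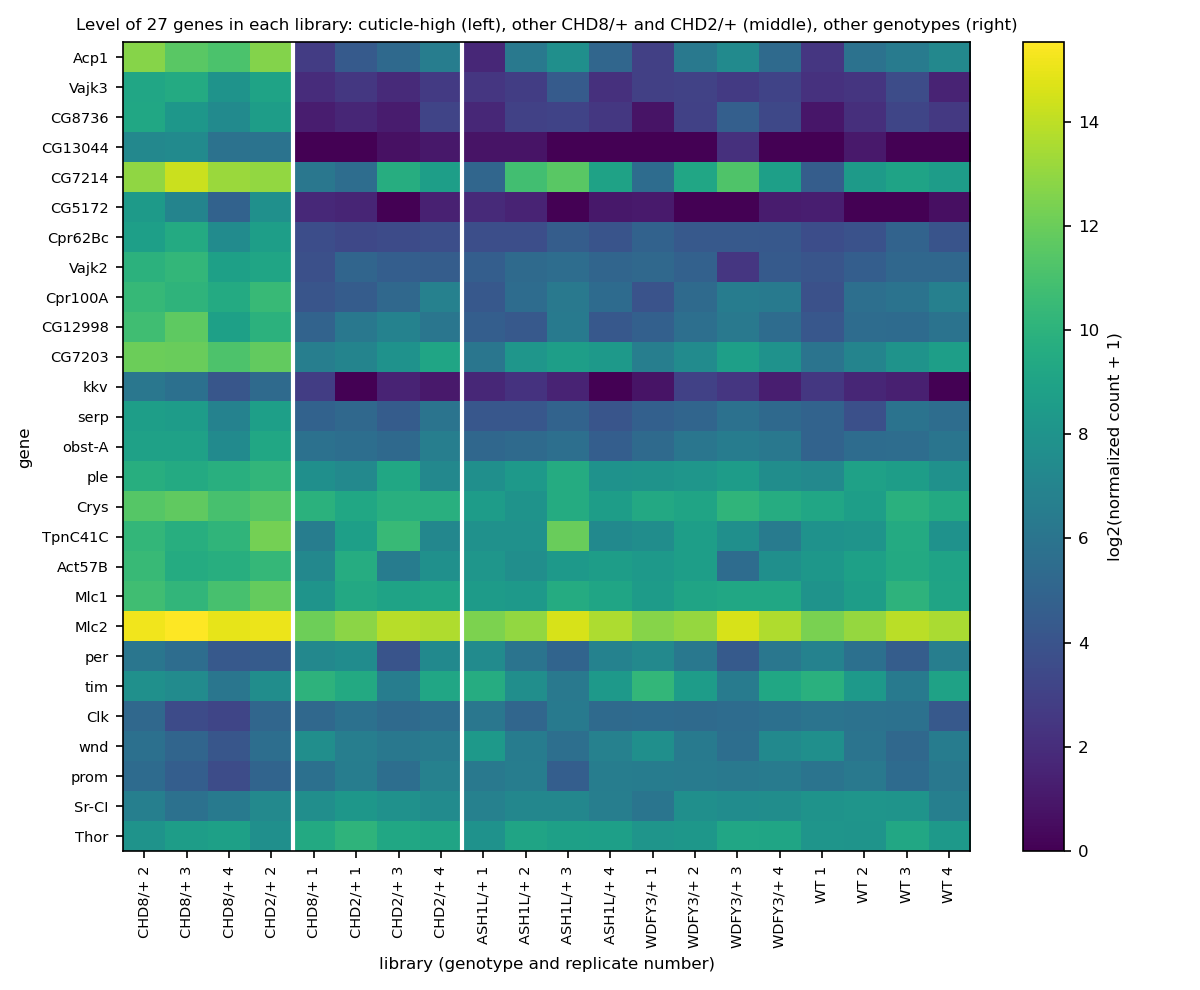
Level of 27 genes (rows) in 20 libraries (columns) as log2(normalised count + 1), shown by colour. The 4 cuticle-high libraries stand at the left, the other CHD8/+ and CHD2/+ libraries in the middle and the outside libraries at the right; Acp1 is at 2224 counts or more in the left block and at 208 or fewer elsewhere, while per and tim overlap between the blocks.

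Chitin enzymes and chitin-binding proteins were also higher, though by less. Of 36 genes in the table, 23 passed the filter, 8 were separated and higher, none was separated and lower, and the median difference was 0.58. Idgf6 lay wholly below in the cuticle-high libraries, by less than 2-fold (log2 difference -0.96). The mean log2 level of the list was 7.11 ± 0.27 in the cuticle-high libraries and 6.17 ± 0.10 in the other 4 (SD, n = 4 each), and 5.73 to 6.34 outside. The chitin synthase of the epidermis, kkv, had 71.7, 51.4, 17.0 and 39.4 counts in the cuticle-high libraries, against 5.998, 0, 1.91 and 1.05 in the other 4 and 0 to 7.14 outside (log2 difference 4.005). The chitin deacetylases serp and verm, neighbours at 3L:19690033-19708015, differed by 3.09 and 2.10 on the log2 scale. For serp the counts were 409, 384, 119 and 426 in the cuticle-high libraries, against 28.2, 36.2, 21.6 and 61.6 in the other 4, and for verm 26.5, 20.6, 14.8 and 58.7, against 7.18, 12.7, 2.54 and 3.13. Both lay in separate ranges in the 2 sets, with CHD8/+ replicate 4 lowest among the cuticle-high libraries.

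The chitin-binding protein obst-A had 479, 479, 170.3 and 605 counts in the cuticle-high libraries, against 54.5, 48.7, 39.3 and 96.7 in the other 4 and 24.3 to 88.98 outside (log2 difference 2.78). Cht7, a chitinase, had 32.9, 19.5, 12.1 and 35.9 counts, against 2.98, 2.34, 2.53 and 11.5 in the other 4 and 2.31 to 15.5 outside, and its lowest cuticle-high value was close to the highest of the other set. Cht2, Gasp and Cda5 complete the 8 separated genes.

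Tanning and pigment genes were divided. Of 17 that passed the filter, 4 were separated and higher (ple, yellow-d2, yellow-e and e) and none was separated and lower. The list median was only 0.15, with 11 positive and 6 negative differences. Ddc lay wholly below in the cuticle-high libraries, by less than 2-fold (log2 difference -0.54). Tyrosine hydroxylase, encoded by ple, makes the dopa from which dopamine is formed, and it had 845, 707, 899 and 1206 counts in the cuticle-high libraries, against 209.6, 158, 599.7 and 150.3 in the other 4 and 154 to 745 outside. Its log2 difference was 1.93, and CHD2/+ replicate 3 stood above the rest of its set. The yellow family gene yellow-e had 118, 154, 83.1 and 122 counts, against 25.02, 9.28, 50.1 and 21.8 in the other 4, and its relative yellow-d2 had 125, 49.1, 17.3 and 82.7, against 1.46, 3.45, 0.634 and 0. The proteins with a zona pellucida domain that line the apical matrix had no separated gene among the 5 that passed, and all 5 differences were positive. Among them pot had 206, 94.7, 153 and 262 counts in the cuticle-high libraries, against 45.9, 78.9, 71.9 and 208 in the other 4, so the sets overlapped.

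The corneal lens is itself a cuticle. Crys, the drosocrystallin of the lens, had 2773, 3399, 2087 and 2804 counts in the cuticle-high libraries, against 968, 606, 903 and 880.4 in the other 4 and 255 to 1135 outside, with a small spread within sets (log2 difference 1.72, pooled SD 0.30). Retinin, a further lens protein, had 4261, 14782, 8153 and 12445 counts, against 1727, 1441, 8612 and 4404 in the other 4, and the sets overlapped through CHD2/+ replicates 3 and 4. The lens genes Cpr66D and Cpr72Ec overlapped too, with log2 differences of 0.62 and -0.34. So 1 of 4 lens genes was separated.

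Muscle genes formed the second group by which the libraries had been sorted. Of 34 sarcomere genes in the table, 31 passed the filter, 10 were separated and higher, none was lower, and 26 differences were positive, with a median of 0.91. The mean log2 level of the list was 10.14 ± 0.14 in the cuticle-high libraries and 9.19 ± 0.26 in the other 4 (SD, n = 4 each), and 9.01 to 9.67 outside. CHD8/+ replicate 1 was the lowest of all 20 libraries, and without it the median difference was 0.59.

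The regulatory myosin light chain Mlc2 was the most abundant of the separated sarcomere genes and was chosen for this after its values were seen. It had 37669, 47029.7, 31138 and 34499 counts in the cuticle-high libraries, against 4460.2, 7323, 14684 and 13188 in the other 4 and 5349 to 24969.6 (median 10486) outside, a log2 difference of 2.06 (pooled SD 0.59). Mlc1, the essential light chain, had 1772, 1201, 2038 and 3624 counts, against 261, 657, 502 and 555 in the other 4 and 254 to 1050.0 outside (log2 difference 2.09). The tropomyosin gene Tm1 had 6471, 8413, 5204 and 8258 counts, against 2435, 2448, 3897 and 3033 in the other 4 and 1945 to 4759 outside, a log2 difference of 1.26. All 3 genes were separated, and the 2 light chains lay above all 16 other libraries in every cuticle-high library.

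The calcium-binding troponin C genes differed more but also varied more. TpnC47D had 55.5, 19.2, 25.4 and 40.2 counts in the cuticle-high libraries, against 0, 3.53, 6.59 and 5.82 in the other 4 (log2 difference 3.09). TpnC25D, at 1001, 523, 1134 and 3336 against 57.5, 563, 128 and 114, and TpnC41C, at 1214, 855, 1152 and 5011 against 94.2, 441, 1407 and 144, overlapped between the sets. The TpnC41C range outside, 86.3 to 3977, also covered most cuticle-high values. Act57B, a muscle actin, had 1405, 751, 840.2 and 1309 counts, against 148, 765, 89.4 and 225 in the other 4, and overlapped through CHD2/+ replicate 1. Of the genes listed for the indirect flight muscle of the thorax, 2 passed the filter, with a median difference of 0.86. Tm1, given above, was separated and higher. The other listed genes were near 0 or overlapped between the sets. Act88F, the flight muscle actin, had 0 to 21.3 counts (median 12.7) in the cuticle-high libraries, 0 to 6.23 (median 2.32) in the other 4 and 0.915 to 8.39 outside, and TpnC4 had 0 to 8.12, 0 to 2.09 and 0 to 19.2. Flightin (fln) had 111 to 267 counts in the cuticle-high libraries, against 66.8 to 286 in the other 4 and 21.8 to 418 outside.

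Transcripts of other tissues were given beside the contrast as a check on what the heads held. Of 16 genes of the male accessory gland and testis and 11 of the eggshell none reached the filter, and SP, the sex peptide, was at 0 in all 20 libraries. Yolk protein genes were 3 of 3 negative (median -0.27). Fat body genes had a median difference of 0.04 with none of 11 separated, midgut digestion genes -0.29 with none of 10, and larval serum protein genes 0.69 with none of 3. Over all genes 1.87% were separated and higher and 0.425% separated and lower, so these counts say little about any tissue. The part of any tissue carried with the heads in the cuticle-high libraries was not tested.

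Separated genes were few among neuronal and photoreceptor genes, near the shares over all genes (1.87% higher and 0.425% lower). None of 25 neuronal genes was separated, 22 of the differences were negative, and the median was -0.25. Among the 25, Syn lay wholly below by less than 2-fold (log2 difference -0.37). For brp, a protein of the presynaptic active zone, the counts were 688, 342, 232 and 497 in the cuticle-high libraries, against 1185, 601, 347 and 712 in the other 4 and 301 to 1526 outside. Photoreceptor genes had a median of 0.02, with 15 of 30 positive and 1 gene, prom, separated and lower. The pentaspan protein prominin, encoded by prom, helps to keep the light-sensing rhabdomeres apart, and it had 42.8, 23.5, 11.2 and 30.6 counts in the cuticle-high libraries, against 52.7, 96.3, 47.4 and 111 in the other 4.

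Glial genes had a median of 0.46, and 1 of 12 was separated, the trehalose transporter gene Tret1-1 with 569.5, 842, 1288 and 838 counts in the cuticle-high libraries, against 299, 546, 377 and 377 in the other 4. Of 10 basement membrane genes 1 was separated, the type IV collagen gene Col4a1, with 888, 1643, 1352 and 1209 counts, against 449.7, 453, 737 and 828 in the other 4. Both overlapped the outside range, 142 to 1320.5 for Tret1-1 and 316 to 1338 for Col4a1. Odorant-binding protein genes gave 2 separated genes of 24, Obp83g and Obp56c. Both were scarce and entered only through the cuticle-high set. Obp83g had 29.2, 28.7, 19.3 and 30.9 counts in the cuticle-high libraries, against 1.33, 0, 1.28 and 4.06 in the other 4, and Obp56c had 20.7, 10.6, 23.8 and 28.2, against 1.44, 1.14, 7.91 and 0.

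**Figure D3:**
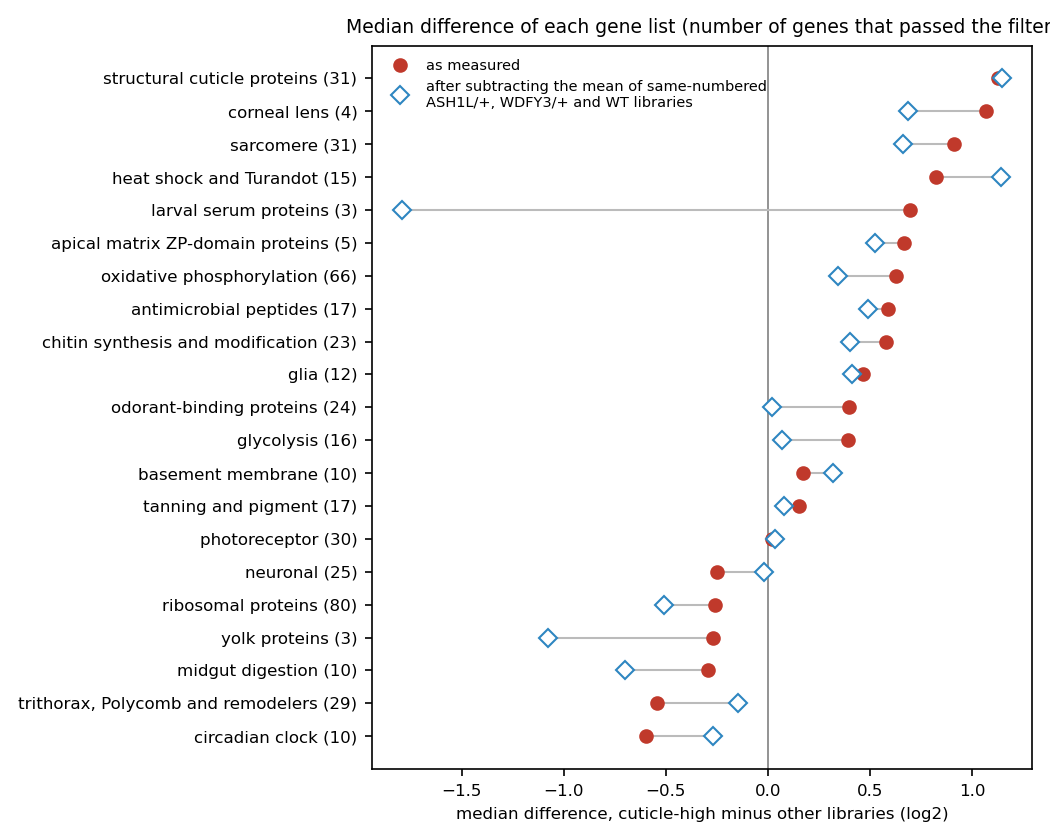
Median log2 difference, cuticle-high minus other libraries, of 21 gene lists with the number of genes that passed the filter in brackets. Circles are the differences as measured and diamonds those after the mean of the same-numbered ASH1L/+, WDFY3/+ and WT libraries was subtracted from each library; the cuticle median is 1.13 as measured and 1.15 after the subtraction, whereas that of oxidative phosphorylation is 0.63 as measured and 0.34 after it.

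Heat shock genes went both ways. Of 15 heat shock and Turandot genes that passed the filter 5 were separated and higher (Hsp23, Hsp26, Hsp27, Hsp68 and Hsp70Ab) and 1, Hsp83, was separated and lower. The small chaperone genes Hsp26, Hsp23 and Hsp27 lie together at 3L:9376418-9385694. Hsp23 had 162, 298, 84.7 and 248 counts in the cuticle-high libraries, against 48.4, 72.2, 79.5 and 69.2 in the other 4 and 24.4 to 87.6 outside. Hsp27 had 165, 179, 46.1 and 75.02 counts, against 34.2, 38.0, 29.96 and 36.2 in the other 4. The inducible Hsp70Ab, which has near-identical copies among which reads can be split, had 22.4, 172, 51.6 and 28.3 counts, against 7.40, 4.66, 21.5 and 8.33, and CHD8/+ replicate 3 was the highest. The copies Hsp70Aa (log2 difference 1.68) and Hsp70Bc (1.28) were not separated. Hsp68 had 69.6, 285, 46.5 and 45.3 counts, against 42.9, 19.8, 32.3 and 7.28 in the other 4, with CHD8/+ replicate 3 again above the rest. The sets lay close at their edges for Hsp23 (84.7 against 79.5), Hsp68 (45.3 against 42.9) and Hsp70Ab (22.4 against 21.5). Hsp83, the fly Hsp90, was named after its values were seen and had 493, 760.5, 621 and 359 counts in the cuticle-high libraries, against 1624, 979, 1126 and 809.7 in the other 4.

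None of 17 antimicrobial peptide genes was separated, where 1.87% of all genes were separated and higher and 0.425% separated and lower. The metchnikowin gene Mtk had 88.2, 0, 5.24 and 309 counts in the cuticle-high libraries, against 59.1, 491, 580.4 and 173 in the other 4, a log2 difference of -3.52 with a pooled SD of 2.85. For the cecropin gene CecA1 the difference was 2.58 with a pooled SD of 2.17.

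Oxidative phosphorylation genes were nearly all positive but none was separated, where few were over all genes (1.87% higher and 0.425% lower). Of 66 that passed the filter, 3 lay wholly above by less than 2-fold, 64 were positive, and the median was 0.63. The mean log2 level was 10.80 ± 0.20 in the cuticle-high libraries and 10.17 ± 0.58 in the other 4 (SD, n = 4 each). COX7C, a subunit of cytochrome c oxidase, had 1914, 3922, 3156 and 2049 counts in the cuticle-high libraries, against 855, 728, 3108 and 1099 in the other 4, where CHD2/+ replicate 3 reached the cuticle-high range. ND-15, a complex I subunit, overlapped in the same way, with 3599, 10926, 4105 and 9147 counts against 2005, 2197, 8341 and 1443. Glycolysis genes were positive in 15 of 16 (median 0.39), and ribosomal protein genes were negative in 59 of 80 (median -0.26), with none separated in either list. By less than 2-fold, 1 glycolysis gene lay wholly above and 1 ribosomal protein gene wholly below.

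Of the 37 lower genes 4 were in one of the gene lists, and 1 differed by 4-fold or more. The kinase gene wnd, which acts in the response of axons to injury, had 52.3, 32.1, 17.0 and 47.6 counts in the cuticle-high libraries, against 199, 97.9, 73.2 and 85.5 in the other 4 and 36.6 to 319 outside (log2 difference -1.59). The gene tun had 106, 48.3, 65.0 and 46.3 counts, against 374, 154, 122 and 176 in the other 4 (-1.57), and babo, a type I receptor of the activin pathway, had 95.6, 69.6, 49.2 and 94.7, against 361, 187, 105 and 148 (-1.26). The transcription factor gene zfh2 had 149, 129, 86.3 and 127 counts, against 475, 258, 187 and 196 in the other 4 (-1.10). In each of these 4 genes CHD8/+ replicate 1 was the highest of the 8 libraries.

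Lower genes with other patterns were PGAP5, Sr-CI and Thor. PGAP5 had 121, 52.0, 89.2 and 101.9 counts in the cuticle-high libraries, against 203, 246, 203 and 259 in the other 4 and 90.7 to 225 outside. Sr-CI, a scavenger receptor of haemocytes, had 102.4, 55.1, 85 and 155 counts, against 207, 291, 234 and 176 in the other 4, and Thor, the translation inhibitor 4E-BP, had 254, 396, 444 and 208, against 702, 1094, 604 and 535. The outside ranges of 65.2 to 277 for Sr-CI and 239 to 639 for Thor covered 6 of the 8 values of Sr-CI and 5 of the 8 of Thor. Only 2 of the 37 lower genes, against 82 of the 163 higher ones, lay beyond all 16 other libraries in every cuticle-high library. These counts too partly restate the choice of libraries high in cuticle and muscle transcripts.

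Clock genes had negative differences in 9 of 10. Clk, the activator of the circadian loop, was separated, with 36.5, 10.46, 8.34 and 33.3 counts in the cuticle-high libraries, against 36.9, 54.5, 39.9 and 48.5 in the other 4 and 19.0 to 82.3 outside. Its highest cuticle-high value, 36.5, was next to the lowest of the other set, 36.9. The repressor tim had 222, 181, 68.4 and 195 counts in the cuticle-high libraries, against 1056, 677, 95.9 and 569.6 in the other 4, and its partner per had 68.1, 44.8, 19.2 and 20.9, against 149, 189.6, 15.4 and 162. Both overlapped through CHD2/+ replicate 3, and the list median was -0.60. Among the trithorax, Polycomb and remodeler genes, the class to which kis belongs, 25 of 29 were negative, none was separated and the median was -0.54. Of these 29 genes, 2 lay wholly below by less than 2-fold.

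Many of these transcripts also differed by replicate number in the outside genotypes. The tim transcript had 790.0, 1219.7 and 927 counts in replicate 1 of ASH1L/+, WDFY3/+ and WT, and 77.9, 87.5 and 83.4 in their replicate 3. Acp1 had 2.26, 6.59 and 4.49 counts in replicate 1 and 77.9, 75.2 and 55.7 in replicate 2, so that replicate 2 was above replicate 1 in all 3 genotypes, at a far lower level than in the cuticle-high libraries. The running sample numbers in the labels also follow replicate number, and the study's batches are not given for each library. By the study's methods, its batch term stood for differences in fly line, tissue source and library preparation.

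To set this beside the contrast, the mean of the same-numbered ASH1L/+, WDFY3/+ and WT libraries was subtracted from each library on the log2 scale. The cuticle-high libraries followed the same-numbered outside libraries less (correlation -0.11 to 0.39) than the other CHD8/+ and CHD2/+ libraries did (0.31 to 0.71). How far the subtraction removes a replicate difference from them was not tested. Of the 163 higher genes 127 still differed by at least 1, as did 21 of the 37 lower genes in their direction. Separated genes counted afresh after the subtraction were 167 higher, 94 of them among the 163, and 54 lower, 16 of them among the 37. The median of the cuticle list was then 1.15, that of the chitin list 0.40 and that of the sarcomere list 0.66. Several lists came closer to 0, with medians of 0.34 for oxidative phosphorylation, 0.07 for glycolysis, -0.02 for neuronal genes, -0.27 for clock genes and -0.15 for trithorax, Polycomb and remodeler genes. Others moved further from 0, to 1.14 for heat shock and Turandot genes, -0.51 for ribosomal protein genes, -0.70 for midgut digestion genes, 0.32 for basement membrane genes and -1.08 for yolk protein genes. Larval serum protein genes changed sign, to -1.79.

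Single genes split the same way. Vajk3 (6.57 against 6.67 as measured), Cpr62Bc (5.07 against 5.02), serp (3.23 against 3.09) and Crys (1.95 against 1.72) kept about the same log2 difference. Replicate 2 minus replicate 1 in the outside genotypes was 0.21 for Vajk3 and -0.10 for Cpr62Bc. Acp1 was 5.35 after the subtraction and CG7214 was 3.61, and replicate 2 minus replicate 1 outside was 3.76 and 4.43. Among lower genes, PGAP5 (-1.40), Sr-CI (-1.61), prom (-1.61) and Thor (-1.39) stayed below -1, whereas wnd (-0.77), tun (-0.67), babo (-0.45) and zfh2 (-0.13) did not. The kis difference was -0.12 after the subtraction and -0.87 as measured.

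The 8 libraries also divide into 2 non-overlapping subsets of 4. Replicate 2 minus replicate 1, averaged over CHD8/+ and CHD2/+, keeps genotype even, while CHD8/+ minus CHD2/+ in replicates 3 and 4 keeps replicate number even. Of the 163 higher genes 148 differed by at least 2-fold in replicates 1 and 2 and 134 in replicates 3 and 4, but their direction in both subsets was fixed by the way they were chosen, and these counts give only the size. The cuticle median was 1.53 in replicates 1 and 2 and 0.87 in replicates 3 and 4, and the sarcomere median was 1.22 and 0.61. Oxidative phosphorylation genes gave 1.05 in replicates 1 and 2 and 0.17 in replicates 3 and 4. For Acp1 the subsets gave 9.09 and 5.38, for Vajk3 6.86 and 6.49, and for Mlc1 2.61 and 1.57. Both subsets took part in the sorting, so neither is a check on the other. In the outside genotypes, replicate 2 exceeded replicate 1 by at least 2-fold in 40 of the 163. The share over all genes was not counted, so the 40 have no scale beside them. Over all genes the median of this difference was 0.06.

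**Figure D4:**
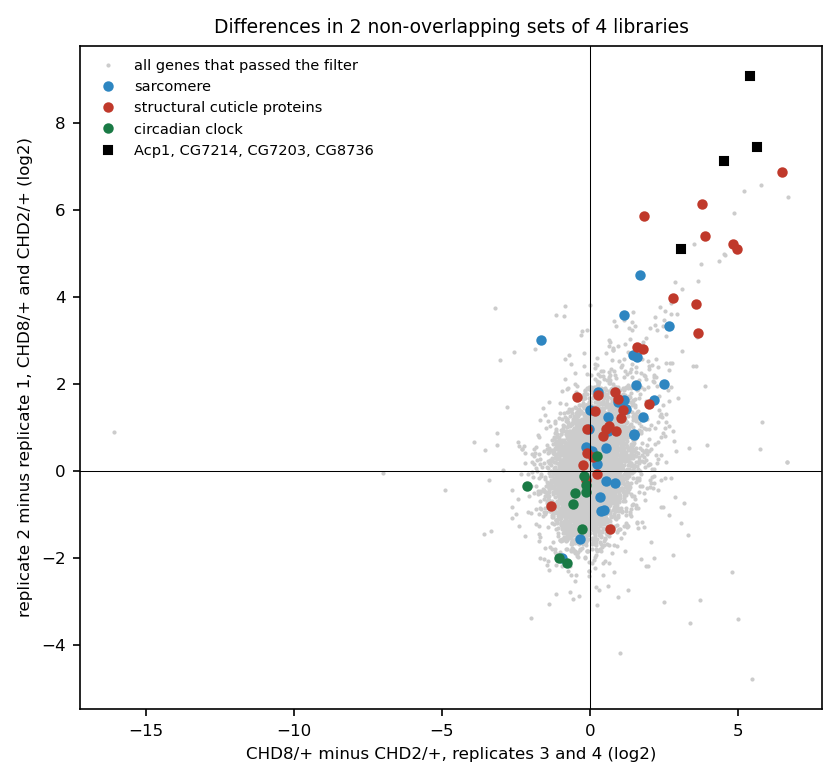
Log2 difference of each of 8707 genes between CHD8/+ and CHD2/+ in replicates 3 and 4 (horizontal axis) and between replicates 2 and 1 of both genotypes (vertical axis). Coloured circles are members of 3 lists and squares are Acp1, CG7214, CG7203 and CG8736; the squares lie at the upper right (Acp1 at 5.38 and 9.09), clock genes mostly at the lower left, and the point at the far left is FBgn0085364 (-16.07).

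The 12 outside libraries, which are in neither set, allow a test among themselves. The question was whether genes follow the cuticle level where no library is cuticle-high, and the level used was the mean log2 value of 25 cuticle genes, which were left out of the test. It ran between 5.15 and 5.80, was lowest in replicate 1 of each genotype, and kept a residual SD of only 0.104 once genotype and replicate number were fitted. By limma with genotype and replicate number in the model, 0 of 9078 genes (0.0%) passed an adjusted p of 0.05, and 549 (6.05%) had an unadjusted p under 0.05, of which 322 (3.55%) had a positive slope. With no replicate block in the model 2630 genes passed, at a cuticle level that itself differed by replicate number. The median standard error of a slope was 1.08 log2 units per log2 unit of cuticle level, so that only steep relations were detectable with 5 residual degrees of freedom.

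Of the 163 higher genes, 121 were tested in the outside libraries and 76 (62.8%) had a positive slope, against 49.7% of all 9078 genes. Of the 121, 9 had an unadjusted p under 0.05 with a positive slope and 3 with a negative one. Of the 37 lower genes 36 were tested and 11 (30.6%) had a positive slope. Acp1 had a slope of 5.41 (SE 1.12) with a limma p of 0.000731 and an adjusted p of 0.44.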

How the data were processed

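RNA of adult heads was prepared with a 3' mRNA-seq kit, which reads transcript ends. Per the labels and the study's methods, the authors quantified reads with Salmon 0.12.0 on BDGP6 and scaled counts with DESeq2. The deposited values are normalised counts (a signal scale, not whole reads), so no count model was used here. The double heterozygote has a table of its own and entered no comparison.

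Values were analysed as log2(value + 1), with Python 3.11.15 and R 4.3.3, for genes at 10 or more in at least 4 libraries. The contrast was described without a test. Libraries, members and gene lists were chosen with earlier results of these data known. Genes were named if they were among the 15 largest separated differences in each direction (mean of at least 50 counts), the 5 largest of a list or a mutated gene, unless said otherwise. The outside libraries were fitted with limma 3.58.1 (trend, two-sided, Benjamini-Hochberg). The model held genotype and replicate number, which stands in for the batch term of the study's model, since batches are not given for each library. Same-numbered libraries of ASH1L/+, WDFY3/+ and WT deviated together (r of 0.25 to 0.76 over 12 pairs), whereas CHD8/+ with CHD2/+ gave -0.05 to 0.46 over 4. With the same-numbered outside libraries, the cuticle-high libraries gave r of -0.11 to 0.39 and the other CHD8/+ and CHD2/+ libraries 0.31 to 0.71. The replicates are biological by the study's methods. The study adjusted for batch because of differences in fly line, tissue source and library preparation, but does not say which libraries differed. Symbols matched 17252 of 17559 identifiers, and coordinates come from an Ensembl annotation of BDGP6. No sequences are shown. Alternatives changed the added value, filter, scaling, replicate block, genotype, fold and library, and the limma fit was tested on simulated data.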

Additional observations from a re-analysis of the deposited data

Results flagged for a closer look

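In 17 of 176 groups of 4 libraries examined, 1 library stood far from the other 3. Chance gives about 1 in 20 in groups taken at random, but many of the genes examined were named for differing between the sets, which makes CHD8/+ replicate 1 and CHD2/+ replicate 2 the odd libraries of their genotypes, so the count is no test. CHD2/+ replicate 2 was above the other CHD2/+ libraries in 6 of them, on the log2 scale: chitin synthesis and modification genes (mean 7.35, others 6.03 to 6.22), Vajk3 (9.01, others 1.82 to 2.63), Vajk2 (9.11, others 4.57 to 5.05), Cpr62Bc (8.70, others 3.34 to 3.75), Mlc1 (11.82, others 8.97 to 9.36) and Hsp23 (7.96, others 6.13 to 6.33). CHD8/+ replicate 1 was below the other CHD8/+ libraries for Acp1 (2.74, others 11.12 to 12.70), CG7214 (6.13, others 12.93 to 14.25), CG7203 (6.65, others 11.18 to 12.05), Cpr100A (4.09, others 9.48 to 10.41), ple (7.72, others 9.47 to 9.81), TpnC41C (6.57, others 9.74 to 10.25), Obp83g (1.22, others 4.35 to 4.92) and the mean of oxidative phosphorylation genes (9.54, others 10.63 to 10.75). These libraries are the ones by which the sets were drawn, so their distance restates that choice, for the genes named by size of difference as for the cuticle and muscle genes.

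Ribosomal protein genes were highest in CHD8/+ replicate 4 among CHD8/+ libraries (mean log2 level 12.21, others 11.75 to 11.81) and in CHD2/+ replicate 3 among CHD2/+ libraries (12.77, others 12.06 to 12.10). CHD2/+ replicate 3 also had the most reads by estimate, 9.92 M against 2.78 to 3.84 M. In 4 lists every library of CHD8/+ replicates 2 to 4 lay on one side of replicate 1, and CHD2/+ replicate 2 lay on the opposite side of all other CHD2/+ libraries. The mean log2 level of photoreceptor genes differed by 0.17 for CHD8/+ replicates 2 to 4 minus replicate 1 and by -0.45 for CHD2/+ replicate 2 minus the others. By the same differences ribosomal protein genes had 0.19 and -0.26, oenocyte and hydrocarbon genes -0.74 and 0.52, and septate junction genes -0.15 and 0.46. Each of these differences rests on a single library on one side and was not tested.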

How the results depend on the processing

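None of the 45 separated genes given with values in the text changed sign under any alternative run, while the medians of 6 of 21 gene lists did (antimicrobial peptides, larval serum proteins, midgut digestion, photoreceptor, ribosomal and yolk proteins). For a separated gene the sign was fixed by its choice in most of these runs. Only TMM factors, quantile normalisation and the replicate block could change it, so the genes and the lists are not on one scale. The counts of separated genes (163 higher and 37 lower) moved by over 1.5 times with no filter (246 and 60), with 10 counts demanded in all 8 libraries (97 and 22), in CHD8/+ only (1226 and 1448), in CHD2/+ only (866 and 589) and, in alternatives chosen after seeing the data, with replicates 1 and 2 only (698 and 570) or replicates 3 and 4 only (437 and 314). Fewer libraries leave more genes without overlap, so these last counts are not on one scale with 163. A limit of 1.5-fold gave 108 lower genes. Leaving out 1 library at a time gave 180 to 423 higher and 31 to 282 lower genes, with the most without CHD2/+ replicate 3.

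The replicate block, in which the means of same-numbered outside libraries were subtracted, gave 167 higher genes (94 shared with the 163) and 54 lower genes (16 shared with the 37), a cuticle median of 1.15 and a sarcomere median of 0.66. The cuticle median of 1.13 was 0.34 with no filter, 0.77 with 10 counts in all 8 libraries, 0.77 with genes chosen outside, 1.43 in CHD8/+ only and 1.53 in replicates 1 and 2, and 0.95 to 1.32 without single libraries. The sarcomere median of 0.91 was 1.43 in CHD8/+ only, 1.22 in replicates 1 and 2 and 0.61 in replicates 3 and 4, and 0.59 to 1.05 without single libraries. TMM factors, quantile normalisation and added values of 0.5 or 5 kept the counts within 1.5 times.

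In the outside libraries the count of 0 associated genes became 2630 with no replicate block, where replicate number and cuticle level run together, and 0 to 1 without single libraries (1 without WDFY3/+ replicate 3). Over all list medians, 34 values moved by more than the spread between replicates, and 7 more on leaving out a library, as did 81 values of named genes. The causes of these changes were not tested. Low counts limit genes such as kkv and CG13044, whose values in the other libraries are near 0.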
